A study of Homo sapiens with 6 samples.

Results

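The Ran cycle genes examined here were RAN, RCC1, RANGAP1, RANBP1, RANBP2 and NUTF2. They are 6 of the 63190 genes listed in the series and hold 57 of its 207167 transcripts. Total RNA depleted of ribosomal RNA was sequenced from 3 libraries of D391N cells and 3 libraries of control cells. Both are HEK293 cells, a human embryonic kidney line, which the study's methods describe as the T-Rex derivative in which doxycycline induces an integrated construct. D391N cells overexpress DIS3L2, a cytoplasmic exoribonuclease that degrades uridylated RNA from the 3′ end, with a substitution that inactivates its catalytic site. The control cells are labelled as empty, and the methods do not say whether it was given doxycycline. Each condition is 1 cell line, so the construct and the line cannot be told apart, and nothing says that the 3 libraries of a line came from separate cultures. RANBP1 was selected on these same data for an isoform annotated as retained intron that was higher in all D391N libraries, so its values are given as a description with no test. The other 5 genes were named for their roles, with earlier results of these data known.

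Ran is a small GTPase that gives nuclear transport its direction. RCC1, bound to chromatin, loads Ran with GTP inside the nucleus, and RANGAP1, helped by RANBP1 and RANBP2, triggers GTP hydrolysis on the cytoplasmic side. Import receptors release cargo when they meet RanGTP, exportins bind cargo together with it, and NUTF2 carries RanGDP back into the nucleus. The same gradient guides spindle assembly in mitosis.

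Levels are in RPKM, reads scaled to transcript length and to the reads of the library, and a gene sum adds the RPKM of all listed transcripts of a gene. Triplets of levels follow the order of replicates 1, 2 and 3, D391N first. Read totals estimated from the deposited variances lay between 18100000 and 31100000 per library. The DIS3L2 gene sum was 369, 467 and 512 RPKM with D391N and between 11.8 and 14.6 RPKM in the controls, with all D391N libraries far above. Of 6 markers of the line fixed for a check, 5 were at a mean of 1 RPKM or more, and NEFM was under that level. VIM, KRT8 and KRT18 were lower in all D391N libraries than in all controls, LIN28B was higher, and PAX2 overlapped. Of all tested gene sums, 20.7% were lower in every D391N library and 10.5% were higher. None of the 5 markers passed the limma test (lowest limma adjusted p = 0.0907, for KRT8). Of 6 markers of other cell types, PTPRC and COL1A1 reached a mean of 1 RPKM, and no library had more than 4.05 RPKM of COL1A1. D391N replicate 1 stood apart in the tests over all transcripts: leaving it out moved the number called by limma from 33 to 4984, and results that rest on it are given with and without it. In bulk RNA, fewer cells of a kind and less RNA per cell cannot be told apart.

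None of the 5 tested gene sums passed the test, and RANBP1, which was not tested, and RANBP2 were the genes whose sums did not overlap between the lines. RAN, the GTPase itself (ENSG00000132341, chr12:130872066-130877678 of GRCh38), had sums of 929, 675 and 841 RPKM with D391N against 939, 944 and 910 RPKM in the controls. The lowest value was in D391N replicate 2, and the ranges overlapped. The means were 815 ± 129 RPKM and 931 ± 18.4 RPKM (SD, n = 3 each). On the log2(RPKM + 0.1) scale, the change from control to D391N cells was -0.20 with a standard error of 0.23 (limma adjusted p = 0.631). It was -0.075 without D391N replicate 2, and its sign turned under other scalings, to 0.015 with each library centred on its median and to 0.28 with quantile normalization.

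RCC1, the exchange factor (ENSG00000180198, chr1:28506043-28538989), was at 85.7, 59.5 and 50.7 RPKM in the D391N libraries and at 73.1, 71.5 and 59.5 RPKM in the controls. The values of the lines were interleaved, and the log2 change was -0.089 with a standard error of 0.22 (limma adjusted p = 0.842). It was 0.13 with median centring and 0.076 without D391N replicate 3. RANGAP1, the activator of hydrolysis (ENSG00000100401, chr22:41244779-41302369), was at 67.4, 67.8 and 61.6 RPKM with D391N and at 84.3, 90.0 and 61.75 RPKM in the controls. Control replicate 3 lay with the D391N libraries, and the log2 change was -0.24 with a standard error of 0.18 (limma adjusted p = 0.453), and -0.41 without control replicate 3.

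RANBP1, which makes RanGTP in export complexes open to RANGAP1 (ENSG00000099901, chr22:20116104-20127355), was at 268, 1108 and 293 RPKM in the D391N libraries and at 149, 169 and 162 RPKM in the controls. All D391N libraries were above all controls, with D391N replicate 2 far above the other two. The means were 556 ± 478 RPKM and 160 ± 10.3 RPKM (SD, n = 3 each), the log2 change was 1.47, and it was 0.81 without D391N replicate 2. RANBP2, the large nucleoporin of the cytoplasmic filaments that holds SUMO-modified RANGAP1 (ENSG00000153201), was at 50.8, 76.8 and 82.8 RPKM with D391N and at 47.9, 47.9 and 39.4 RPKM in the controls. Its RefSeq record on chromosome 2 runs from 108719482 to 109842301, much further than the GENCODE gene. The ranges did not overlap, but D391N replicate 1 lay just above the controls. The log2 change was 0.61 with a standard error of 0.22 (limma adjusted p = 0.177, exact permutation p = 0.1, the smallest that 3 libraries against 3 allow). Without D391N replicate 1 it was 0.83 (limma adjusted p = 0.0318, in a fit where 10.9% of all gene sums passed), and over the other libraries left out in turn it lay between 0.48 and 0.66, past the threshold in none.

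NUTF2, the import carrier of RanGDP (ENSG00000102898, chr16:67846933-67872567), was at 51.2, 18.4 and 46.1 RPKM in the D391N libraries and at 56.9, 62.6 and 47.9 RPKM in the controls. D391N replicate 2 was the lowest by far. The log2 change was -0.66 with a standard error of 0.39 (limma adjusted p = 0.351), and -0.19 without D391N replicate 2. Of the 5 tested genes, 0 passed an adjusted p of 0.05, where 0.14% of all 20714 tested genes did, and 1, RANBP2, had an unadjusted p under 0.05, as did 22.7% of all genes. Sums higher in every D391N library made up 10.5% of all tested genes, and sums lower in every one 20.7%. RANBP2 was the 1 tested gene of the cycle that was higher in every D391N library, and 0 were lower in every one.

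**Figure D1:**
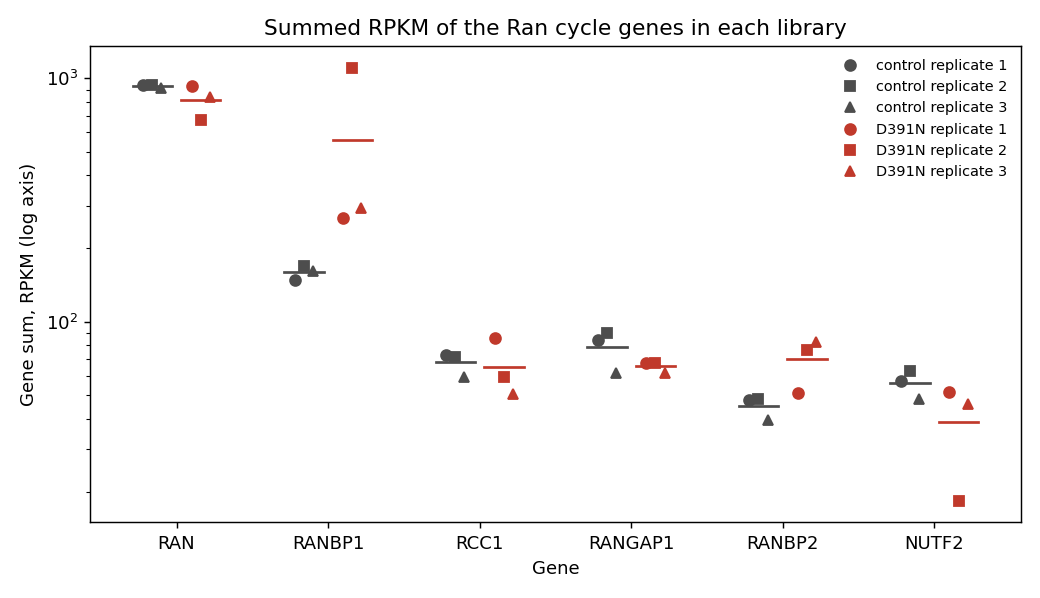
Gene sums of the 6 Ran cycle genes in RPKM on a log axis, 1 point per library with the replicate number as its symbol, control in grey and D391N in red, with horizontal lines at the mean of 3 libraries. RANBP1 and RANBP2 have all D391N points above all control points, with RANBP1 in D391N replicate 2 at 1108 RPKM.

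By level, the order in the control cells was RAN, RANBP1, RANGAP1, RCC1, NUTF2 and RANBP2. RAN was 5.82 times RANBP1 and RANBP1 2.03 times RANGAP1 on the RPKM scale, and these neighbours did not overlap. The ranges of each later neighbour pair overlapped. In the D391N cells RANBP2 stood next after RANBP1, and RANBP1 in replicate 2 exceeded RAN in the same library. Of the 1108 RPKM of RANBP1 in that library, 592 RPKM were of the 333 nt transcript RANBP1-206. That order thus depends on the scaling to length and on how reads were divided between transcripts. RANBP1 was 7.93 times RANBP2 in the D391N cells, with no overlap, and 4.19 times without D391N replicate 2, beside 3.55 times in the controls.

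The higher RANBP1 sum lay mainly in a pair of short transcripts. Of these, 1 was above the controls in D391N replicates 2 and 3 only. The full-length transcript had similar estimated levels in both lines. RANBP1-201 (ENST00000331821, 1054 nt, 6 exons, protein coding) was at 137, 128 and 96.0 RPKM with D391N and at 115, 133 and 128 RPKM in the controls. The lines overlapped, with means of 120 ± 21.5 RPKM and 125 ± 9.08 RPKM (SD, n = 3 each) and a log2 difference of -0.074. Its sign turned to 0.064 under quantile normalization, and to 0.080 when D391N replicate 3 was left out. Of the 1005 windows of 50 nt in RANBP1-201, 0 are found in no other RANBP1 transcript. Its level therefore rests on how BitSeq divides reads that it shares.

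The transcript for which the gene was selected, RANBP1-203 (ENST00000411892, 584 nt, annotated as retained intron), was at 89.2, 369 and 132 RPKM with D391N and at 0.897, 1.88 and 1.47 RPKM in the controls. Its lowest D391N library was 47.5 times its highest control. The means were 197 ± 151 RPKM and 1.42 ± 0.493 RPKM (SD, n = 3 each), and the log2 difference of 6.81 ranked 5 among the 54671 tested transcripts. This rank uses the values on which the gene was selected. BitSeq's 95% posterior interval was 76.5 to 104 RPKM in D391N replicate 1, the lowest of that line, and 0.30 to 7.13 RPKM in control replicate 3. Between 15.5 and 34.1 estimated reads stood behind the control values, and between 1140 and 3915 behind the D391N values.

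RANBP1-206 (ENST00000421656, 333 nt, 3 exons, protein coding) was at 0.92, 592 and 35.5 RPKM in the D391N libraries and at 1.74, 1.15 and 1.78 RPKM in the controls. D391N replicate 1 lay below the controls, whereas D391N replicates 2 and 3 lay above them. The log2 difference was 4.10, with 1.89 when D391N replicate 2 was left out and 6.48 when replicate 1 was. In D391N replicate 1 the interval of RANBP1-206, 0.076 to 11.2 RPKM, covered the 3 control values, and in D391N replicate 2 it was 557 to 630 RPKM.

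The sequences at the points where the short transcripts leave RANBP1-201 are shown because they are what can tell the isoforms apart. Capitals mark the bases after the end of exon 4 in the first pair, and the bases of exon 1 in the second pair, with transcripts of GENCODE as the source.
RANBP1-203, exon 4 into the retained part of intron 4: tgaatgctgagaGTGAGCCAAGGGCCCTGG
RANBP1-201, exon 4 into exon 5: tgaatgctgagaATGCACAGAAATTCAAAA
RANBP1-206, exon 1 into exon 2: CCGCGTGACCTTGGGgacactcatgaggac
RANBP1-201, exon 1 into exon 2: ATGGCGGCCGCCAAGgacactcatgaggac
RANBP1-203 runs from exon 4 straight into the intron, whose first bases are the GT of a splice donor, and its annotated end comes 52 nt later. RANBP1-206 starts in an exon of its own of 38 nt and ends with exon 3. The exon 1 bases shown for RANBP1-201 begin with the ATG that opens the RANBP1 reading frame, and RANBP1-206 has other bases there.

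Most of each short transcript is also sequence of RANBP1-201. RANBP1-203 shares 532 of its 584 nt with it, and 90.3% of the 535 windows of 50 nt in RANBP1-203, the length of a read, occur in RANBP1-201. Of the 284 windows of RANBP1-206, 87.0% do. The short transcripts also share 295 nt with each other, which is all of RANBP1-206 but its first exon. Their separate levels therefore depend on few reads that match 1 transcript and on how BitSeq divides the rest. The sum of all RANBP1 transcripts lacking the last exon, which also depends on that division because their lengths differ, was 98.3, 966 and 171 RPKM in the D391N libraries and 8.53, 7.77 and 11.4 RPKM in the controls. The sum of the transcripts that reach the last exon was 169, 142 and 121 RPKM and 140, 161 and 150 RPKM, with overlap.

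As a share of the gene sum, RANBP1 transcripts annotated as retained intron took 34.3%, 33.8% and 45.6% with D391N against 1.85%, 3.15% and 2.71% in the controls. The means were 37.9% ± 6.66 and 2.57% ± 0.659 (SD, n = 3 each), a difference of 35.3 percentage points. These shares lay closer among the D391N libraries than the retained-intron sums, which were 91.8, 374 and 133.5 RPKM. In D391N replicate 2 the gene sum that the share is taken of held 592 RPKM of RANBP1-206. The share lacking the last exon was 36.7%, 87.1% and 58.5% with D391N and 5.73%, 4.597% and 7.03% in the controls, a difference of 55.0 points. Among 7403 genes with a gene sum of at least 10 RPKM and several listed transcripts, RANBP1 ranked 1 by this difference, and the median difference was 0.0 points. RANBP1-203 lacks the last exon, so this rank uses the values on which the gene was selected and lends no support. RANBP1-201 took 51.2%, 11.5% and 32.8% of the sum with D391N against 77.6%, 78.8% and 78.9% in the controls.

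**Figure D2:**
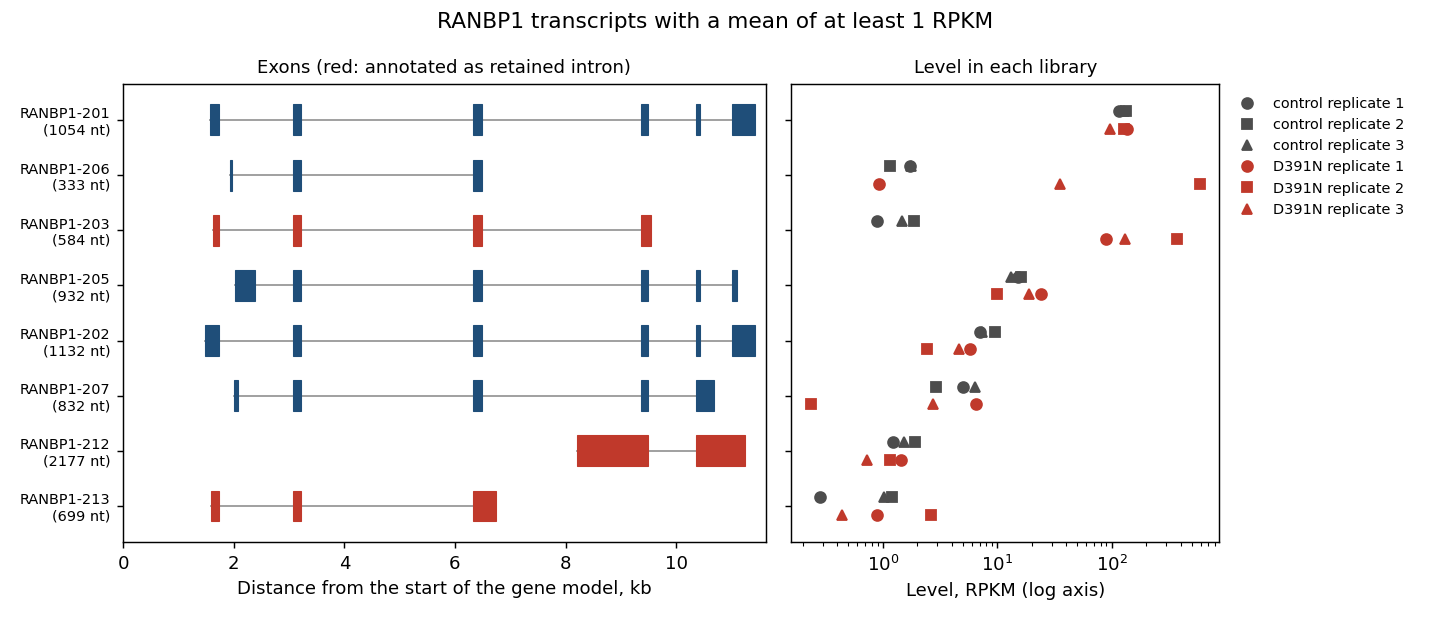
Left, exons of the 8 RANBP1 transcripts above the filter of 1 RPKM, drawn to scale against distance in kb from the start of the gene model, red where annotated as retained intron and blue where protein coding. Right, the level of each in every library in RPKM on a log axis, with D391N in red and control in grey. RANBP1-203 is at 89.2 RPKM or more in all D391N libraries and at 1.88 RPKM or less in all controls, while RANBP1-201 overlaps.

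The remaining RANBP1 transcripts were low and did not share the pattern of RANBP1-203. RANBP1-212 (ENST00000486575), a retained-intron model over exons 4 to 6, was at 1.44, 1.16 and 0.72 RPKM with D391N and at 1.23, 1.93 and 1.54 RPKM in the controls. RANBP1-213 (ENST00000488484), which runs from exon 3 into intron 3, was at 0.89, 2.61 and 0.436 RPKM against 0.285, 1.20 and 1.02 RPKM. Both overlapped between the lines, the latter with a log2 difference of 0.45 that was -0.096 without control replicate 1. RANBP1-205 (ENST00000418705) was at 24.1, 9.98 and 19.1 RPKM against 15.2, 15.98 and 13.1 RPKM, and RANBP1-202 (ENST00000402752) at 5.83, 2.42 and 4.67 RPKM against 7.06, 9.47 and 7.38 RPKM. RANBP1-202 was lower in every D391N library. RANBP1-207 (ENST00000423859) was at 6.49, 0.235 and 2.74 RPKM against 5.05, 2.94 and 6.43 RPKM, and 6 further listed transcripts stayed under a mean of 1 RPKM.

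A pair of listed genes overlaps RANBP1 in the annotation. TRMT2A, on the opposite strand, had sums of 21.4, 14.0 and 17.0 RPKM in the D391N libraries and 33.3, 37.5 and 26.97 RPKM in the controls, in the other direction from RANBP1. The small nucleolar RNA listed as SNORA77, on the same strand, was at 41.1, 0.955 and 1.958 RPKM with D391N and at 42.2, 36.6 and 93.2 RPKM in the controls. It was low in the same D391N libraries, replicates 2 and 3, in which RANBP1-206 was high. The copy RANBP1P1 lay between 3.79 and 8.88 RPKM in all libraries. The part of these genes in the RANBP1 values was not tested.

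For the other 5 genes the isoform mix was tested. They list 43 transcripts, of which 34 had a mean of at least 1 RPKM and entered the fit. None passed in the limma fit on levels, where 0.0604% of all 54671 tested transcripts did, and none in the fit on isoform shares, where 0.0436% of 48131 did. The lowest limma adjusted p was 0.0675 for a level and 0.0798 for a share. At an unadjusted p under 0.05 there were 9 transcripts by level, 4 higher and 5 lower, which is 26.5% against 17.6% of all tested transcripts, and 7 by share, which is 20.6% against 15.5%. Levels were higher in every D391N library for 4 transcripts, 11.8% of the 34, where 10.1% of all were. They were lower in every one for 7 transcripts, 20.6%, where 15.6% of all were. Without D391N replicate 1, 7 of the 34 passed by level, beside 9.08% of all transcripts tested in that fit, and 7 by share, beside 7.91% of all.

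**Figure D3:**
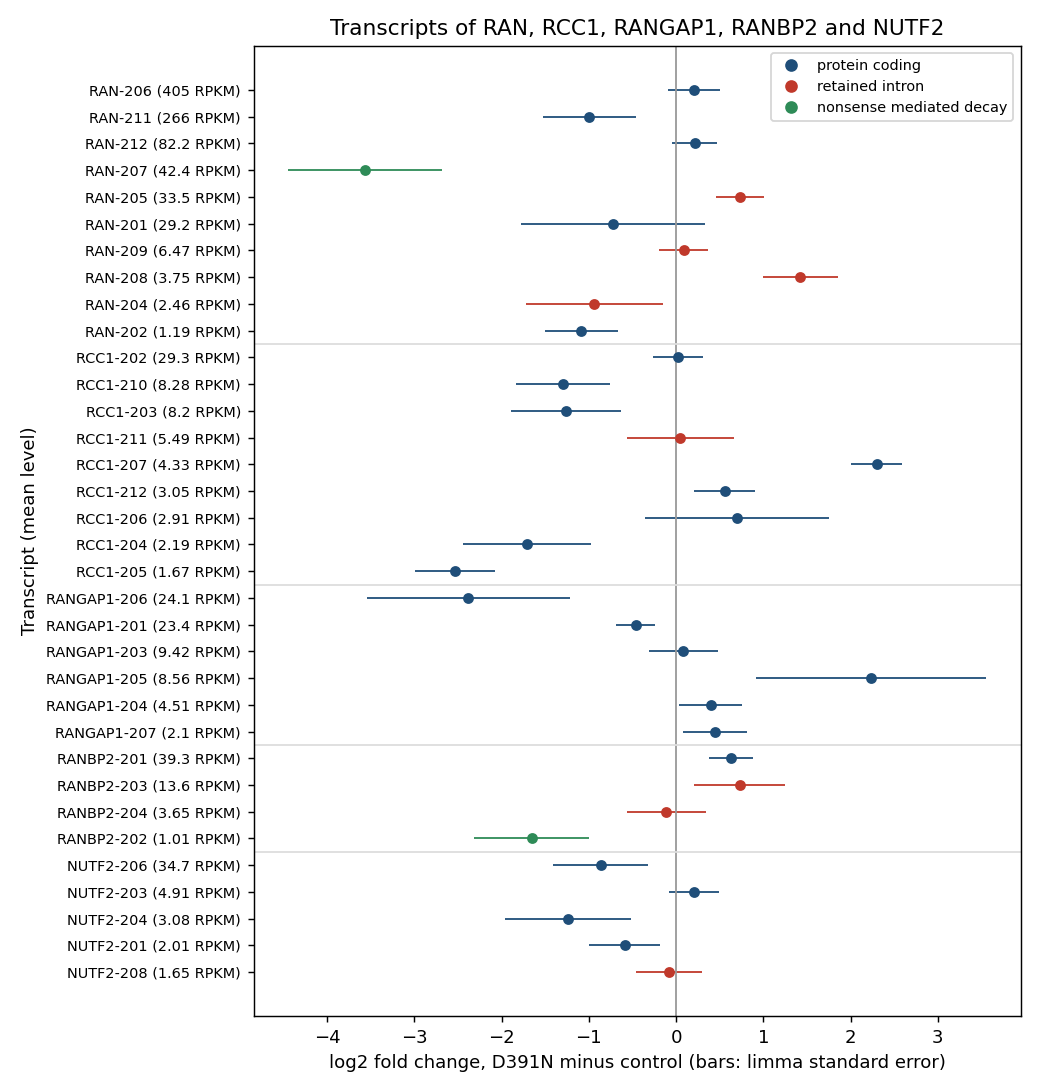
log2 fold change from control to D391N cells on the log2(RPKM + 0.1) scale for the 34 tested transcripts of RAN, RCC1, RANGAP1, RANBP2 and NUTF2, with bars of 1 limma standard error and colours for the annotated class. RCC1-207 at 2.30 has the lowest adjusted p, 0.0675, and RAN-207 at -3.56 is the lowest point.

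In RPKM, which scales to length, the RAN sum was carried mainly by a pair of short protein-coding transcripts. RAN-206 (ENST00000535090, 657 nt) was at 397, 434 and 459 RPKM with D391N and at 429, 434 and 276 RPKM in the controls, with overlap and a log2 change of 0.21 (limma adjusted p = 0.745) that was -0.0071 without control replicate 3. RAN-211 (ENST00000541679, 572 nt) was at 371, 90.6 and 134 RPKM against 309, 280 and 411 RPKM. D391N replicate 1 lay among the controls and the other D391N libraries below them. The log2 change was -0.99 (limma adjusted p = 0.370), with -1.57 when D391N replicate 1 was left out (limma adjusted p = 0.0339) and -0.56 when replicate 2 was. RAN-212 (ENST00000543796, 2474 nt) was at 86.5, 73.3 and 106 RPKM against 83.8, 79.9 and 63.9 RPKM, a log2 change of 0.21 (limma adjusted p = 0.690) that was 0.079 without D391N replicate 3 and 0.096 without control replicate 3.

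RAN transcripts of the non-coding classes differed in both directions without passing the test, and those named here were chosen after their values were seen. RAN-207 (ENST00000536606), annotated as a target of nonsense-mediated decay, was at 21.4, 1.77 and 4.86 RPKM in the D391N libraries and at 39.4, 72.6 and 114 RPKM in the controls. It was lower in every D391N library, with a log2 change of -3.56 and a standard error of 0.88 (limma adjusted p = 0.154, and 0.0149 without D391N replicate 1). RAN-205 (ENST00000477395, retained intron) was at 31.8, 55.2 and 39.7 RPKM against 25.3, 25.9 and 22.9 RPKM. RAN-208 (ENST00000537745, retained intron) was at 2.95, 6.35 and 7.41 RPKM against 2.66, 1.65 and 1.48 RPKM. Both were higher in every D391N library, with log2 changes of 0.74 and 1.42 (limma adjusted p = 0.245 and 0.194), and RAN-208 passed without D391N replicate 1 (limma adjusted p = 0.0337). In D391N replicate 1 BitSeq's 95% posterior intervals were 23.3 to 43.5 RPKM for RAN-205 and 1.90 to 4.57 RPKM for RAN-208. Each covered the highest control value of its transcript. The other tested retained-intron transcripts of RAN, RAN-204 and RAN-209, overlapped between the lines. Their log2 changes were -0.94 and 0.086 (limma adjusted p = 0.5565 and 0.896). Transcripts annotated as retained intron took 4.92%, 10.02% and 6.72% of the RAN sum with D391N and between 3.58% and 4.01% in the controls.

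The most abundant RCC1 transcript was interleaved between the lines, and no RCC1 transcript passed the test. RCC1-202 (ENST00000373832, 2424 nt) was at 38.2, 27.7 and 23.2 RPKM with D391N and at 33.6, 30.5 and 22.7 RPKM in the controls, a log2 change of 0.024 (limma adjusted p = 0.974), with the sign turning to -0.058 with quantile normalization. RCC1-210 (ENST00000434290) was at 7.88, 1.94 and 5.68 RPKM against 15.4, 9.28 and 9.43 RPKM, lower in every D391N library with a log2 change of -1.30 (limma adjusted p = 0.278) that was -0.72 without D391N replicate 2. RCC1-203 (ENST00000373833) was at 12.4, 2.55 and 2.50 RPKM against 8.48, 12.4 and 10.9 RPKM. D391N replicate 1 of RCC1-203 lay with the controls, and its log2 change of -1.26 (limma adjusted p = 0.340) was -2.01 without that library (limma adjusted p = 0.0167).

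The transcript of the 5 genes with the lowest adjusted p, named after its values were seen, was RCC1-207 (ENST00000427469, 903 nt, protein coding). It was at 8.55, 7.0 and 6.18 RPKM in the D391N libraries and at 1.69, 1.02 and 1.51 RPKM in the controls, with means of 7.24 ± 1.20 RPKM and 1.41 ± 0.348 RPKM (SD, n = 3 each). The log2 change was 2.30 with a standard error of 0.30 (limma adjusted p = 0.0675, 0.049 with a pseudocount of 1 and 0.0209 without D391N replicate 1). As a share against the other RCC1 transcripts it was 2.53 on the log2 scale (limma adjusted p = 0.0798). Of its 854 windows of 50 nt, 0 are found in no other RCC1 transcript, so its level rests on reads that it shares. BitSeq's 95% posterior intervals of RCC1-207 were 0.31 to 9.21, 0.12 to 9.03 and 0.20 to 11.3 RPKM in control replicates 1, 2 and 3. Each of them covered all D391N values, and the limma fit did not use these intervals. RCC1-205 (ENST00000411533, 10 exons) went the other way, at 0.297, 0.449 and 0.445 RPKM against 1.60, 3.34 and 3.88 RPKM, a log2 change of -2.54 (limma adjusted p = 0.104, and 0.0385 without D391N replicate 1).

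Within the RCC1 locus, the same-strand small nucleolar RNA SNORA73B was at 509, 42.4 and 96.2 RPKM with D391N and at 563, 385 and 471 RPKM in the controls. Its host SNHG3 was at 26.4, 14.6 and 19.8 RPKM against 34.2, 32.4 and 19.6 RPKM. SNORA73B, like the small nucleolar RNA within RANBP1, lay within the controls in D391N replicate 1 and below them in replicates 2 and 3, while SNHG3 overlapped between the lines. The part of these neighbours in the RCC1 values was not tested.

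By RPKM, RANGAP1-206 was the most abundant RANGAP1 transcript of every control and of D391N replicate 1 but not of replicates 2 and 3. This transcript (ENST00000452543, 603 nt) was at 25.6, 0.79 and 12.6 RPKM with D391N and at 41.5, 37.4 and 26.4 RPKM in the controls, lower in every D391N library with a log2 change of -2.38 and a standard error of 1.16 (limma adjusted p = 0.334). It was -0.93 without D391N replicate 2. RANGAP1-205 (ENST00000446258, 759 nt), described after its values were seen, was at 0.635, 28.6 and 17.6 RPKM against 1.07, 2.30 and 1.18 RPKM. D391N replicate 1 was below the controls and the other D391N libraries above them, with a log2 change of 2.23 (limma adjusted p = 0.407, and 3.88 with limma adjusted p = 0.0104 without D391N replicate 1). It was 1.24 without D391N replicate 2. These are both short protein-coding models of which 45 of 554 and 48 of 710 windows of 50 nt are found in no other RANGAP1 transcript. The order by RPKM depends on the scaling to length. RANGAP1-206 had 741, 701 and 323 estimated reads in the controls and 338 in D391N replicate 1. RANGAP1-201, of 3828 nt, had 3196, 3612 and 1789 in the controls and 1746 in that library.

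The long RANGAP1-201 (ENST00000356244, 3828 nt) was steadier, at 20.9, 19.2 and 18.8 RPKM with D391N and at 28.2, 30.3 and 23.0 RPKM in the controls. It was lower in every D391N library, with a log2 change of -0.46 and a standard error of 0.23 (limma adjusted p = 0.334). RANGAP1-203 (ENST00000418067) was at 13.7, 9.56 and 6.06 RPKM against 7.55, 12.7 and 6.93 RPKM, interleaved, with a log2 change of 0.084 (limma adjusted p = 0.929) that was -0.20 without D391N replicate 1. None of the RANGAP1 transcripts is annotated as retained intron.

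**Figure D4:**
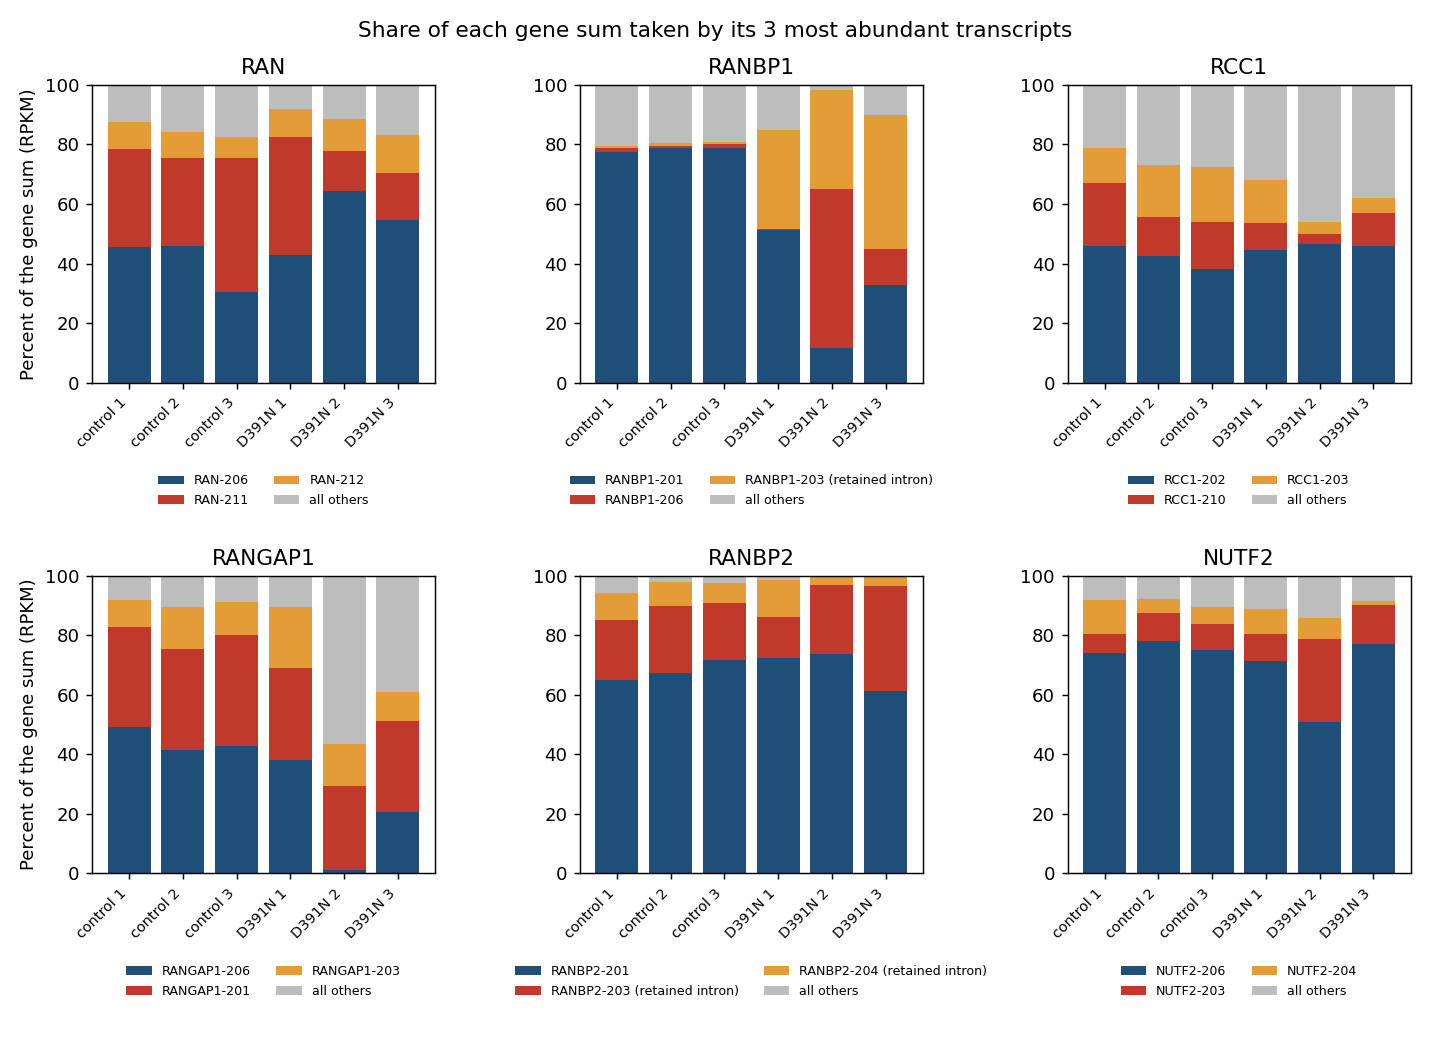
Stacked bars of the percent of each gene sum (RPKM) taken by the 3 most abundant transcripts and by all others, in 3 control and 3 D391N libraries. RANBP1-201 takes 77.6% to 78.9% of the sum in the controls and 11.5% to 51.2% with D391N, and RANGAP1-206 takes 38.1%, 1.17% and 20.5% with D391N.

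RANBP2 is the longest of the set, and both its full-length transcript and RANBP2-203 had a higher mean with D391N. RANBP2-201 (ENST00000283195, 11708 nt, 29 exons) was at 36.8, 56.6 and 50.9 RPKM with D391N and at 31.1, 32.3 and 28.3 RPKM in the controls. Each D391N library was above each control, with means of 48.1 ± 10.2 RPKM and 30.5 ± 2.06 RPKM (SD, n = 3 each) and a log2 change of 0.63 with a standard error of 0.25 (limma adjusted p = 0.269). Genes with a main transcript of at least 8000 nt, 431 in all, had a median log2 change of 0.041, and the remainder -0.076. RANBP2-203 (ENST00000495506, retained intron) was at 6.89, 17.8 and 29.1 RPKM against 9.71, 10.7 and 7.44 RPKM, and RANBP2-204 (ENST00000495924, retained intron) at 6.31, 2.09 and 2.66 RPKM against 4.19, 3.96 and 2.69 RPKM. Both overlapped, with log2 changes of 0.73 and -0.11 (limma adjusted p = 0.487 and 0.916), and the latter was 0.20 without D391N replicate 2. RANBP2-203 had 0.27 without D391N replicate 3 and 1.30 without D391N replicate 1. RANBP2-202 (ENST00000425282), a model for nonsense-mediated decay outside the naming rule, was at 0.78, 0.257 and 0.24 RPKM against 2.86, 0.977 and 0.949 RPKM, a log2 change of -1.66 (limma adjusted p = 0.269).

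RANBP2 has near-identical copies, the RGPD genes, between which reads can be divided. Their summed level was 97.7, 131 and 74.6 RPKM with D391N and 64.6, 85.1 and 77.2 RPKM in the controls, with overlap. RGPD6 and RGPD8 had log2 changes of 0.75 and 0.65 (limma adjusted p = 0.217 and 0.118) and RGPD5 of -0.0025 (limma adjusted p = 0.998). The part of the copies in the RANBP2 value was not tested. RAN has 9 listed pseudogenes with summed levels of 2.92 to 4.19 RPKM, and NUTF2 has 7 with 0.497 to 0.682 RPKM, small beside the genes themselves.

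NUTF2 was carried by NUTF2-206 (ENST00000569436, 2392 nt), at 36.6, 9.39 and 35.5 RPKM with D391N and at 42.2, 48.8 and 35.96 RPKM in the controls. D391N replicate 2 stood apart, and the log2 change of -0.86 (limma adjusted p = 0.433) was -0.22 without it. NUTF2-203 (ENST00000568233) was at 4.55, 5.09 and 6.01 RPKM against 3.57, 6.04 and 4.17 RPKM, and NUTF2-204 (ENST00000568390) at 4.37, 1.34 and 0.576 RPKM against 6.47, 2.96 and 2.74 RPKM. Both overlapped, with log2 changes of 0.21 and -1.24 (limma adjusted p = 0.739 and 0.400). With single libraries left out these ranged from 0.045 to 0.42, lowest without control replicate 1 and highest without control replicate 2, and from -1.97 without D391N replicate 1 to -0.60 without D391N replicate 3. NUTF2-205 (ENST00000568396), which the study lists among the RNAs bound by mutant DIS3L2, was under the filter, at 0.94, 0.239 and 0.289 RPKM with D391N and 0.266, 0.189 and 1.36 RPKM in the controls. Its levels were interleaved and gave no test. CENPT, on the opposite strand at NUTF2, lay between 17.8 and 22.2 RPKM in every library.

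The 5 tested genes held 8 tested transcripts annotated as retained intron, for comparison with RANBP1-203. Of these, 5 were higher and 3 lower on average with D391N, and 2 were higher in every D391N library, where 9.74% of the 9350 tested retained-intron transcripts of the series were. The median log2 change was 0.068 for the 8 and 0.00029 for the 9350. RANBP1-203, at 6.81, was far from both, as the selection of RANBP1 implies.

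The rest of the Ran transport machinery was read from 47 genes in lists by function, of which all but KPNA7, 46 genes, had a mean gene sum of at least 1 RPKM. None passed an adjusted p of 0.05 in limma, beside 0.14% of all tested genes, and 11 of the 46 had an unadjusted p under 0.05, beside 22.7% of all. Of the 46, 30 were higher and 16 lower on average, with a median log2 change of 0.19 against -0.09 over all genes. Gene sums were higher in every D391N library for 10 of the 46, beside 10.5% of all tested genes, and lower in every one for 5, beside 20.7% of all. Without D391N replicate 1, 6 of the 46 passed, beside 10.9% of all genes tested in that fit, namely XPO1, TPR, DLGAP5, RANGRF, TNPO2 and NUP62.

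Among the receptors, the largest differences lay in the major import and export carriers. XPO1, the exportin of proteins with leucine-rich signals, was at 268, 423 and 361 RPKM with D391N and at 189, 205 and 152 RPKM in the controls. It was higher in every D391N library, with a log2 change of 0.93 and a standard error of 0.23 (limma adjusted p = 0.111). KPNB1, importin beta, was at 699, 1123 and 574 RPKM against 400.2, 394 and 426 RPKM, also without overlap, with a log2 change of 0.91 and a standard error of 0.29 (limma adjusted p = 0.148). Of the 12 import receptors 6 were higher and 6 lower on average, and of the 8 exportins 6 were higher and 2 lower.

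KPNA2, the most abundant importin alpha, which links classical signals to KPNB1, had means of 138 ± 18.3 RPKM with D391N and 118 ± 15.95 RPKM in the controls (SD, n = 3 each), with overlap. KPNA4 of the same family was at 37.9, 31.9 and 37.2 RPKM against 25.6, 26.4 and 20.8 RPKM, higher in every D391N library with a log2 change of 0.56 (limma adjusted p = 0.128). Of the 6 tested importin alpha genes 4 were higher and 2 lower on average.

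The nucleoporin TPR, of the nuclear basket, was at 156, 292 and 226 RPKM with D391N and at 128, 127 and 131 RPKM in the controls. It was higher in every D391N library, with a log2 change of 0.76 (limma adjusted p = 0.152, and 0.0274 without D391N replicate 1). Of the 7 nucleoporins 6 were higher and 1, NUP62, lower on average. Of the 4 genes of the SUMO pathway that modifies RANGAP1, SENP1, a SUMO protease, had the largest difference, a log2 change of 0.56 (limma adjusted p = 0.1597).

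The Ran accessory proteins had 1 of 4 genes higher on average, RANBP9, with a log2 change of 0.22 (limma adjusted p = 0.410). RANBP3, a cofactor of XPO1, had -0.083 (limma adjusted p = 0.765), which was 0.14 with median centring. RANGRF, outside the naming rule at a mean of 9.82 RPKM, had the largest change of this list, -0.84 (limma adjusted p = 0.142). The spindle factors had 4 of 5 genes higher on average. DLGAP5 among them had a log2 change of 0.61 (limma adjusted p = 0.222, and 0.0256 without D391N replicate 1), and NUSAP1, the most abundant, had 0.22 (limma adjusted p = 0.458).

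**Figure D5:**
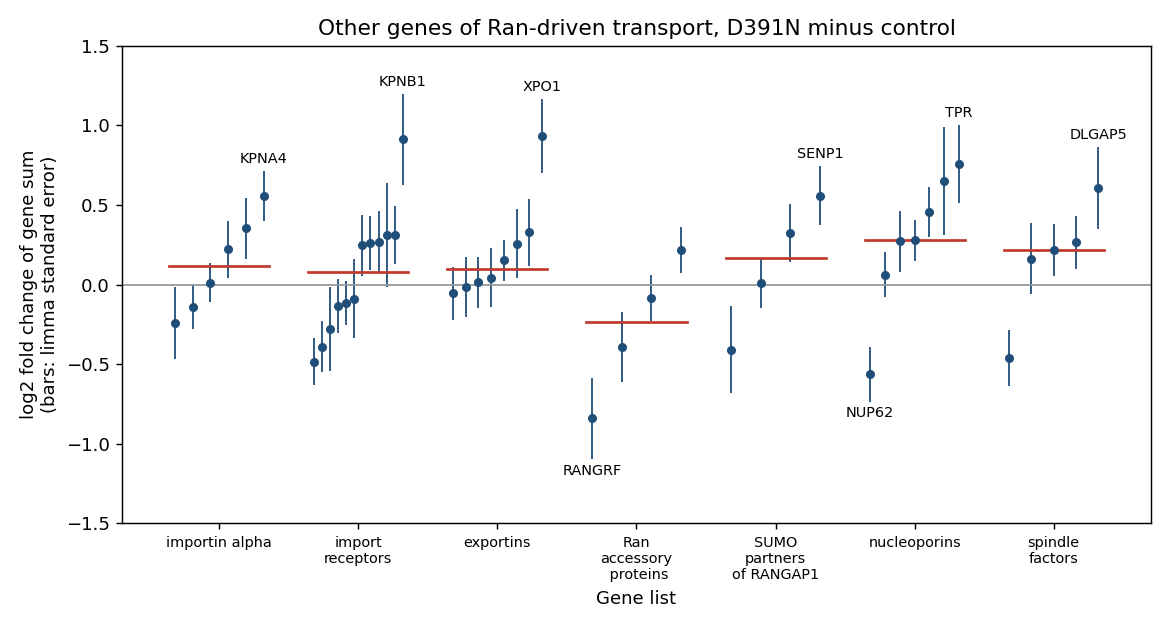
log2 fold change of the gene sum from control to D391N cells for 46 other genes of Ran-driven transport and spindle assembly, grouped by list, with bars of 1 limma standard error and a red line at the median of each list. XPO1 at 0.93 and KPNB1 at 0.91 are the highest points, and RANGRF at -0.84 is the lowest.

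The genes whose sums followed each member most closely over the 6 libraries were found among 8285 genes with a mean of at least 10 RPKM, by Pearson's r of the log2 sums, given as a description. They were IWS1 and ANKLE2 for RANBP1 (r = 0.998 and 0.997), H2AC17 and SNORA56 for RAN (r = 0.998 and 0.997) and RLF and FKBP3 for RANBP2 (r = 0.9998 and 0.999). For RCC1 they were EIF3I and ZFYVE21 (r = 0.988 and 0.982), for RANGAP1 SNF8 and PIGC (r = 0.981 and 0.978) and for NUTF2 SF3B5 and MAX (r = 0.995 and 0.994). The points are 6 libraries of differing depth, 3 from each line. Genes with r over 0.95 numbered 302 for RANBP1, 344 for RANBP2, 262 for RAN, 150 for NUTF2, 18 for RCC1 and 8 for RANGAP1.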

How the data were processed

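RNA-seq of 3 D391N and 3 control HEK293 libraries was used. Per the study's methods, the authors sequenced single-end reads of 50 nt from rRNA-depleted RNA (ScriptSeq), with 3 libraries to a lane that are not named, removed adapters (cutadapt), mapped the reads with Segemehl onto the GRCh38 transcripts of Ensembl and obtained levels by BitSeq. Tool versions are not given in the sources used here. For each transcript and library the deposited files hold RPKM on a natural log scale, as BitSeq's posterior mean, together with the posterior variance. From the variance, 95% intervals and read numbers were estimated. These cover counting and assignment error only.

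Natural log values were exponentiated, and log2(RPKM + 0.1) was fitted with limma 3.58.1 (empirical Bayes with trend) in R 4.3.3 for transcripts or gene sums with a mean of at least 1 RPKM. A fold change on this scale understates changes of low transcripts. Isoform shares were fitted as the log2 ratio of a transcript to the other transcripts of its gene. Benjamini-Hochberg adjustment ran over all features tested, and the threshold was 0.05. All fits were run on simulated data with planted changes, which were larger for the share and gene fits than for the transcript fit. The simulated noise was independent between features, and no simulated library stood apart. The simulation therefore does not show how the fits behave with a library such as D391N replicate 1. The members and lists were chosen with earlier results of these data known. Described by rule were the 3 most abundant transcripts of each gene, transcripts past the threshold, RANBP1 retained-intron transcripts, NUTF2-205, and in each pathway list the most abundant gene and the one with the largest fold change among genes with a mean of at least 10 RPKM. Others are marked as chosen after their values were seen. A gene that the rule names in a pathway list is not reported here. Pairing by replicate number was not seen: deviations of same-numbered libraries correlated at 0.0867, 0.055 and -0.111, so the replicate block was an alternative only. With 3 libraries per line, these correlations cannot exclude that same-numbered libraries shared a batch.

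Alternatives were other pseudocounts, filters and scalings, limma without trend, a replicate block and each library left out. Added after seeing the data was the RANBP1 share lacking the last exon. Transcript models, lengths and sequences came from GENCODE v44, matched by identifier for 56 of the 57 transcripts. Annotated classes are of that release, not of the one aligned to. Gene positions came from RefSeq on GRCh38. Python 3.11.15, pandas 2.3.3, numpy 2.4.6, scipy 1.17.1 and matplotlib 3.10.9 were used.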

Additional observations from a re-analysis of the deposited data

How the results depend on the processing

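Over 9 settings other than a left-out library, 371 of 378 values of named genes and transcripts kept their direction and their side of the threshold, and 5 of the 43 values reversed in at least 1. Transcripts of the 5 tested genes past the threshold numbered 0 as reported, 1 with a pseudocount of 1, and 0 to 7 without single libraries. Gene sums numbered 0 to 1, isoform shares 0 to 7 and transport genes 0 to 6 without single libraries, the highest always without D391N replicate 1 and 0 without each other library. With the replicate block, which treats same-numbered libraries as paired, 0 transcripts, 0 gene sums, 0 shares and 0 transport genes passed, as reported, and no call changed. Over all features that block left 7 transcripts, 2 gene sums and 0 shares past the threshold, against 33, 29 and 21 as reported. The RANBP1 retained-intron share difference was 31.5 to 37.4 points without single libraries and 55.0 points as the share lacking the last exon, a wider definition.

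Median centring moved the median log2 change of all genes from -0.09 to 0.129, and quantile normalization to 0.0762. Reversed values with median centring were RAN 0.0148, RCC1 0.13 and RANBP3 0.136, and with quantile normalization RAN 0.278, RANBP1-201 (ENST00000331821) 0.0641 and RCC1-202 (ENST00000373832) -0.0575. Without single libraries, reversed values lay within ranges of -0.302 to 0.0759 for RCC1, -0.132 to 0.00616 for RANBP3, -0.00709 to 0.318 for ENST00000535090, -0.175 to 0.0804 for ENST00000331821, -0.0958 to 0.991 for ENST00000488484, -0.171 to 0.186 for ENST00000373832, -0.196 to 0.386 for ENST00000418067 and -0.573 to 0.203 for ENST00000495924. The cause was not tested for any of these. Values were at a limit of depth for RANBP1-206 in D391N replicate 1, with 6.70 estimated reads, among others. RANBP1-207 and RANGAP1-206 had 3.54 and 8.6 estimated reads in D391N replicate 2. RCC1-205 had 7.58, 9.53 and 12.8 in the D391N libraries, and RANBP2-202 had 1.71 and 2.17 in D391N replicates 2 and 3.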
